A study of Mus musculus with 7 samples.

Results

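The 10 genes described here are Nfe2l2, which encodes the transcription factor NRF2, and 9 genes known as its targets: Hmox1, Nqo1, Gclm, Gclc, Srxn1, Txnrd1, Slc7a11, Gsr and Prdx1. They were taken by symbol from the gene counts and the FPKM values, where 10 of 10 were found among 21878 genes, and 10 of 10 were among the 14609 genes with enough counts to test. RNA came from abdominal aortas of C57BL/6 mice, all male and 8 weeks old, given angiotensin II (Ang II) over as many as 28 days, a vasoconstrictor hormone used to provoke aneurysms in mice with high blood lipids. The 3 libraries labelled ApoE-/- are called ApoE 1 to ApoE 3 and lack the apolipoprotein gene Apoe by label. The 4 libraries labelled ApoE-/-Nur77-/- are called DKO 1 to DKO 4 and by label lack both Apoe and Nr4a1, the gene of the nuclear receptor Nur77. By their labels both groups share the Apoe knockout, the Ang II exposure, the sex, the strain and the age, although the Apoe counts given below differ between them, and they include no mice without Ang II. By its labels the comparison addresses what an added knockout of Nr4a1 changes in the aorta under Ang II, but the counts of Nr4a1 and Apoe given below do not bear out a loss of Nur77 on a shared background. Whether the libraries come from different mice is not labelled, and p-values then reflect only the spread among these 7 libraries.

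NRF2 is held at a low level by KEAP1, an adaptor that hands it to a CUL3 ubiquitin ligase. Oxidants and electrophiles modify KEAP1, NRF2 then accumulates, pairs with a small MAF protein and binds antioxidant response elements, where the repressor BACH1 competes with it until haem displaces BACH1. The targets make glutathione, recycle thioredoxin and peroxiredoxins, reduce quinones and degrade haem, and in the vessel wall they are best known from macrophages, endothelium and smooth muscle exposed to oxidised lipid or to haem.

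Library totals were 19295287 to 21727192 counts. Levels are given as CPM, counts relative to library sizes scaled by the TMM method, and a count of 0 would allow up to 0.133 to 0.164 CPM, which covers counting error only. The knocked-out genes did not follow the labels. Nr4a1 was read at 193, 56.4 and 111 CPM in ApoE 1 to 3 and at 46.2, 57.0, 90.1 and 92.7 CPM in DKO 1 to 4, with overlap (log2 fold change -0.75, SE 0.42, edgeR adjusted p = 0.360). Apoe, deleted in both groups by label, was read at 184 to 250.3 CPM in the ApoE libraries and at 18.3 to 34.7 CPM in the DKO libraries. It was called lower in DKO, without overlap (log2 fold change -2.95, SE 0.23, edgeR adjusted p = 0.0227). Gene counts can hold reads from parts of a transcript that a deletion leaves, and the deleted parts are not named in the labels. Each direction below is that of the libraries labelled DKO against the libraries labelled ApoE. Smooth muscle and endothelial markers, 5 genes each, had counts in all 7 libraries, as an aorta should.

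The sequence searched in these genes is the core of the antioxidant response element. It is shown because 7 of the 10 genes turned out to follow one order across the libraries. Promoter windows of 250 bases before to 50 bases after a start site (RefSeq, GRCm38.p6) were in the table for 7 of the 10 genes, in 9 windows; Hmox1, Gclc and Gsr were not matched. The core TGACNNNGC, searched on both strands, lay in 5 of the 7 genes with a window (Nfe2l2, Srxn1, Gclm, Prdx1 and Txnrd1), against 14.0% of all 27025 genes in the table. Counted by window it was 5 of 9 against 12.4% of 32851. The genes were listed as known targets of a factor that binds this element. A share above that of all genes therefore does not bear on the order. Slc7a11 and Nqo1 held no match in these windows, which says only that these letters are not there. By the values given below, Slc7a11 thus had the order without a match, and Nfe2l2 had a match without the order. Hmox1 and Gsr, which also had the order, could not be searched. The match of Srxn1 began at base 29 after its start and is not printed. The other 4 are printed below with up to 20 bases on each side, on the strand on which the core reads forward, with the core in capitals.
Prdx1, chr4:116685446-116685494, minus strand: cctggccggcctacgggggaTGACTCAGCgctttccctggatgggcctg
Gclm, chr3:122245403-122245451, minus strand: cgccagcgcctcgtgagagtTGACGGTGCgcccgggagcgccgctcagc
Txnrd1, chr10:82859094-82859142, minus strand: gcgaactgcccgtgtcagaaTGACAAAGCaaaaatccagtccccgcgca
Nfe2l2, chr2:75704875-75704913, minus strand: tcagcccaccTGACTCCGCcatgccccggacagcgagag
The core ended 125 bases before the start in Prdx1, 126 in Gclm, 84 in Txnrd1 (at the second of its 3 listed starts) and 232 in Nfe2l2. The start meant is that of the window. In Gclm and Slc7a11, and at the second start of Txnrd1, it lies inside the gene interval given below and not at its edge. The Prdx1 stretch also spells TGACTCA, the AP-1 motif, which overlaps the core, and the others do not. A match is a description of letters, and binding was not measured in this series.

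In 7 of the 10 genes, DKO 1, DKO 2 and DKO 3 each lay above every ApoE library and DKO 4 lay below every ApoE library. These were Hmox1, Slc7a11, Gclm, Txnrd1, Gsr, Srxn1 and Prdx1. Of all genes tested, 2.59% had this order, which was noticed in these genes and is therefore given without a test. DKO 4 was the lowest of the 7 libraries in 9 of the 10 genes, and DKO 1 was the highest in 6. The shares of all genes with DKO 4 lowest or DKO 1 highest were not computed. These counts therefore cannot be called particular to the 10 genes. The groups overlapped in every one of the 10 genes, in Nfe2l2, Gclc and Nqo1 also without DKO 4, and none passed the test between groups over all genes (edgeR quasi-likelihood, adjusted p 0.170 to 0.956). In that test 0.0274% of all genes were called in either direction (4 lower, Apoe among them, and 0 higher). Other tools called 1 or 2 of the 10, as given below for Hmox1 and Gsr.

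**Figure D1:**
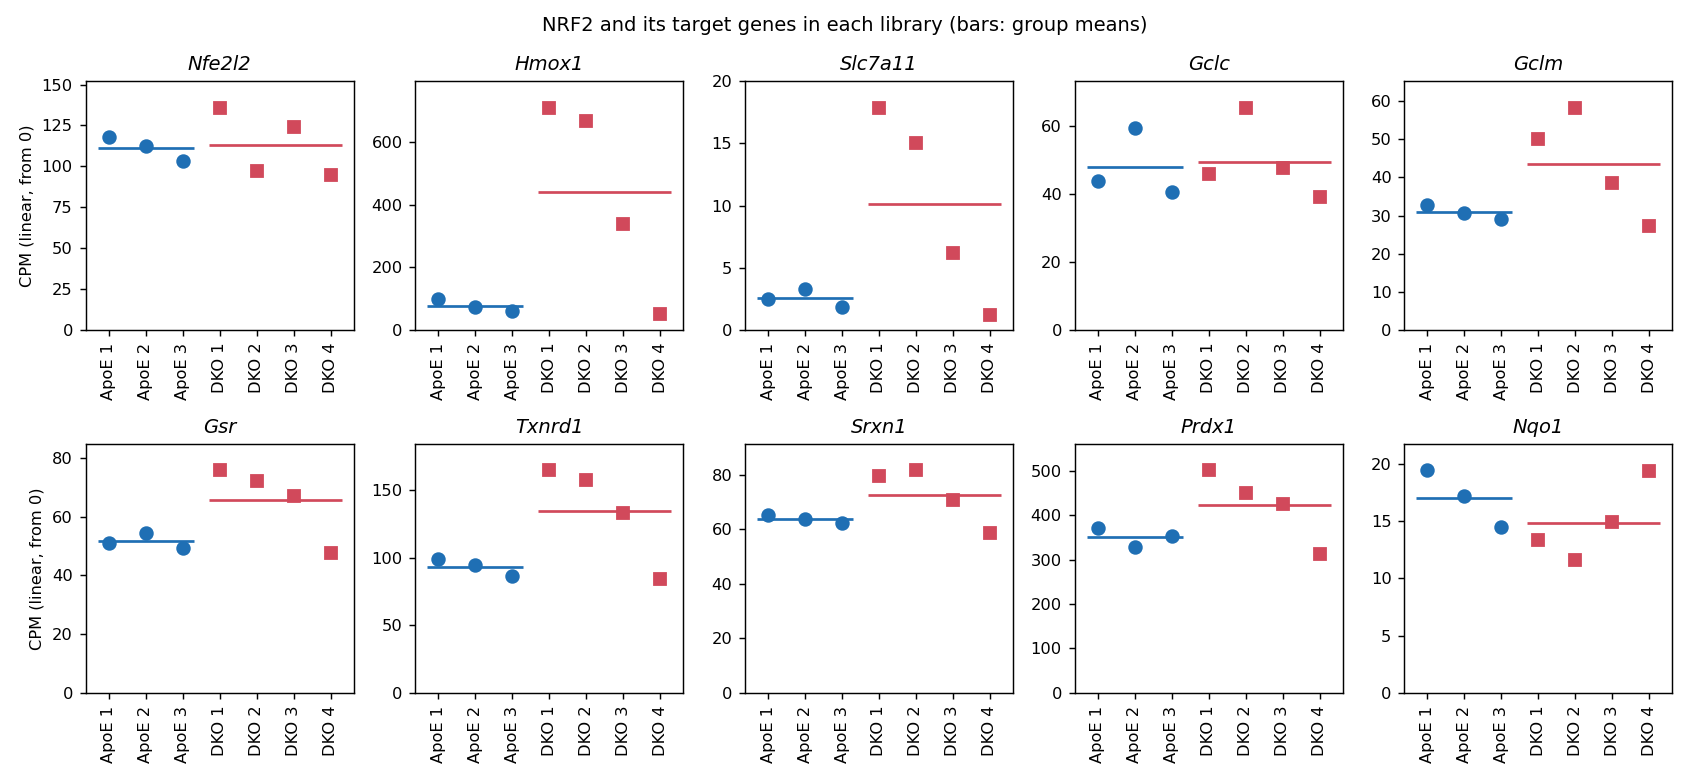
CPM of NRF2 and its 9 targets in each library, on linear axes from 0; circles are ApoE 1 to 3, squares are DKO 1 to 4 and bars are group means. Hmox1 stands at 709, 667 and 339 CPM in DKO 1 to 3 and at 52.4 CPM in DKO 4, below the lowest ApoE library at 60.0 CPM.

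Nfe2l2 itself (chromosome 2, 75675513 to 75704663, GRCm38.p6) was nearly level. It was read at 118, 112 and 104 CPM in ApoE 1 to 3 and at 136, 96.9, 124 and 94.5 CPM in DKO 1 to 4. The groups overlapped, with DKO 1 and DKO 3 above and DKO 2 and DKO 4 below all ApoE libraries, so DKO 2, which lay above every ApoE library in 8 of the 9 targets, was below them in the transcript of the factor. The log2 fold change was 0.02 (95% interval -0.32 to 0.36, adjusted p = 0.956). NRF2 is controlled mainly as a protein, which counts of RNA do not show.

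Hmox1 (chromosome 8, 75093618 to 75100593) encodes haem oxygenase 1, which splits haem into biliverdin, carbon monoxide and iron. Its CPM had the widest range of the 10 genes. It was read at 98.5, 74.9 and 60.0 CPM in ApoE 1 to 3 and at 709, 667, 339 and 52.4 CPM in DKO 1 to 4. The 3 high libraries were all labelled DKO, and the highest and lowest DKO libraries differed 13.5-fold against 1.64-fold among the ApoE libraries. The group means were 77.8 ± 19.4 CPM (SD, n = 3) and 442 ± 308 CPM (SD, n = 4), 5.68-fold higher in DKO (log2 fold change 2.51, SE 0.79, 95% interval 0.66 to 4.35; edgeR adjusted p = 0.170). DESeq2's Wald test called it higher (log2 fold change 2.54, adjusted p = 0.0334), where 3.35% of genes were called higher, and so did limma voom with quality weights (2.12, adjusted p = 0.0367), where 6.17% were. The voom fit gave DKO 4 the lowest weight of the 7 libraries, 0.41, and DKO 3 the highest, 2.81.

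Slc7a11 (chromosome 3, 50364936 to 50499087), the cystine carrier of the xCT exchanger that feeds glutathione synthesis, had the same order at a far lower level. It was read at 2.53, 3.31 and 1.85 CPM in ApoE 1 to 3 and at 17.9, 15.0, 6.22 and 1.23 CPM in DKO 1 to 4, from 24 to 373 counts per library. DKO 1 and DKO 2 stood apart, DKO 3 lay between, and DKO 4 was lowest of all. The log2 fold change was 1.97 (SE 0.81, 95% interval 0.09 to 3.85, adjusted p = 0.235). Its centred log2 profile lay closer to that of Hmox1 than to that of any other of the 10 genes (root mean square difference 0.38 over 7 libraries, against 0.97 for the next, Txnrd1).

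Glutamate-cysteine ligase, which makes the first bond of glutathione, has 2 subunits, and neither gene was called. Gclm, the modifier subunit (chromosome 3, 122245487 to 122267215), was read at 32.9, 30.6 and 29.0 CPM in ApoE 1 to 3 and at 49.98, 58.2, 38.4 and 27.2 CPM in DKO 1 to 4. DKO 2 was highest, and the log2 fold change was 0.50 (SE 0.24, 95% interval -0.07 to 1.06, adjusted p = 0.306). Gclc, the catalytic subunit (chromosome 9, 77754535 to 77794489), was read at 43.7, 59.5 and 40.6 CPM and at 45.7, 65.3, 47.6 and 39.0 CPM. For Gclc ApoE 2 lay above 3 of the 4 DKO libraries, and the log2 fold change was 0.04 (SE 0.20, 95% interval -0.43 to 0.52, adjusted p = 0.928). In FPKM, which is scaled for gene length, the ratio of Gclm to Gclc was 1.90, 1.38 and 1.97 in ApoE 1 to 3 and 2.86, 2.36, 2.06 and 1.85 in DKO 1 to 4. In this ratio DKO 4 fell among the ApoE libraries, whereas it lay below all of them in both genes. A difference in the ratio was not shown (1.75 ± 0.32, SD, n = 3, against 2.28 ± 0.44, SD, n = 4). The exact two-sided permutation test gave p = 0.171, where 35 splits allow no p below 0.0571.

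The reductases that return glutathione and thioredoxin to their reduced forms had small fold changes with little spread among the ApoE libraries. Gsr, glutathione reductase (chromosome 8, 33653238 to 33698162), was read at 50.9, 54.5 and 49.4 CPM in ApoE 1 to 3 and at 75.7, 72.1, 67.1 and 47.5 CPM in DKO 1 to 4 (log2 fold change 0.35, SE 0.16, adjusted p = 0.282). It passed with limma voom with quality weights (log2 fold change 0.40, adjusted p = 0.0480) and not with DESeq2 (adjusted p = 0.203). Txnrd1, the cytosolic thioredoxin reductase (chromosome 10, 82833951 to 82897724), was read at 99.3, 94.9 and 86.2 CPM and at 165, 157, 133 and 84.2 CPM (log2 fold change 0.53, SE 0.22, 95% interval 0.01 to 1.05, adjusted p = 0.245). In both genes the order among the DKO libraries was that of Hmox1, DKO 1 highest and DKO 4 lowest.

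The thiol peroxidase branch had the smallest differences among the 7 genes with the shared order. Srxn1, sulfiredoxin, which repairs over-oxidised peroxiredoxins (chromosome 2, 152105524 to 152111376), was read at 65.3, 63.6 and 62.3 CPM in ApoE 1 to 3 and at 79.7, 81.6, 70.7 and 58.7 CPM in DKO 1 to 4. The ApoE libraries lay within 1.05-fold of each other, and the log2 fold change was 0.19 (SE 0.12, 95% interval -0.10 to 0.48, adjusted p = 0.421). Prdx1, peroxiredoxin 1, which reduces hydrogen peroxide (chromosome 4, 116685599 to 116700000), was read at 372, 329 and 354 CPM and at 501, 449.6, 425 and 314 CPM (log2 fold change 0.27, SE 0.16, adjusted p = 0.392). Srxn1 and Prdx1 had the closest pair of profiles among the 10 genes (root mean square difference 0.09 on the log2 scale).

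Nqo1, the quinone reductase often used as a marker of NRF2 activity (chromosome 8, 107388225 to 107403205), did not share the order. It was read at 19.4, 17.2 and 14.5 CPM in ApoE 1 to 3 and at 13.4, 11.6, 14.9 and 19.4 CPM in DKO 1 to 4. DKO 4 and ApoE 1 were highest, and DKO 1 and DKO 2, the highest in Hmox1, were the lowest. The log2 fold change was -0.20 (SE 0.20, 95% interval -0.66 to 0.26, adjusted p = 0.596), so Nqo1 was the only 1 of the 10 genes with a negative value. Its profile was the farthest from that of Hmox1 of any pair among the 10 (root mean square difference 1.73).

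As a list, 9 of the 10 genes had positive log2 fold changes, against 47.4% of all genes, with a median of 0.31 against -0.02 over all genes tested. At an unadjusted p under 0.05, 3 were higher (Hmox1, Slc7a11 and Txnrd1) and 0 lower, where 8% of all genes were higher and 11.8% lower. No gene of the 10 was higher without overlap between groups, where 7.08% of all genes were. Leaving out 1 library at a time kept Hmox1 between 2.19 and 2.88 on the log2 scale, with no call. The highest value, 2.88 (adjusted p = 0.0566), came without DKO 4, when Txnrd1 reached 0.70 (adjusted p = 0.0575) and Slc7a11 2.34 (adjusted p = 0.0636). Those values leave out the library that lay lowest in these genes, so they describe the other 6 libraries and not the labelled groups. In that fit 0% of genes were called higher, and 13.5% were higher at an unadjusted p under 0.05.

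**Figure D2:**
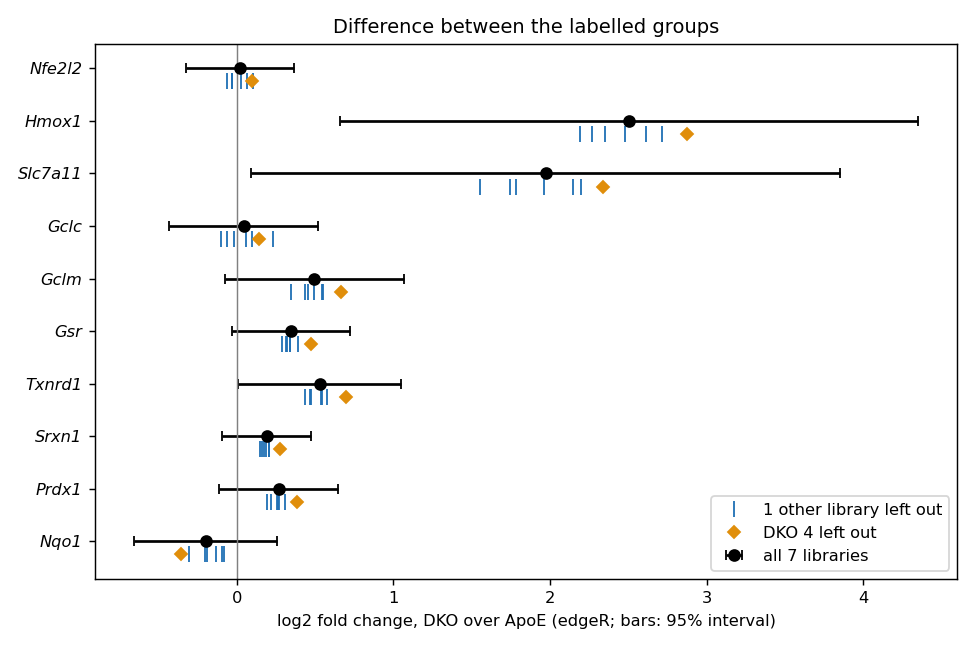
Log2 fold change of each gene, DKO over ApoE, by edgeR's quasi-likelihood fit; black points and bars are the estimate and its unadjusted 95% interval from all 7 libraries, blue ticks the estimates with 1 other library left out and orange diamonds those without DKO 4. Hmox1 (2.51) and Slc7a11 (1.97) lie farthest from 0 with the widest intervals, and Nfe2l2 (0.02), Gclc (0.04), Srxn1 (0.19) and Nqo1 (-0.20) lie nearest 0.

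Levels of different genes were compared in FPKM. In the ApoE libraries Prdx1 was highest (267 ± 5.86 FPKM, SD, n = 3), followed by Hmox1 (39.7 ± 10.4) and Nfe2l2 (36.4 ± 2.90), which overlapped. Txnrd1 (19.5), Srxn1 (18.7), Gsr (18.7) and Gclm (16.7) came next, each overlapping its neighbour in that order. Gclc (9.83) and Nqo1 (9.40) overlapped each other below them, and Slc7a11 (0.27) was the lowest. In the DKO libraries the order differed in that Srxn1 (22.7) lay below Gsr (25.1) and Gclm (24.4), with overlap. Hmox1 reached 99.2% and 95.7% of the FPKM of Prdx1 in DKO 1 and DKO 2 and 55.1% in DKO 3. In the other 4 libraries it was at 10.9% to 19.1%.

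**Figure D3:**
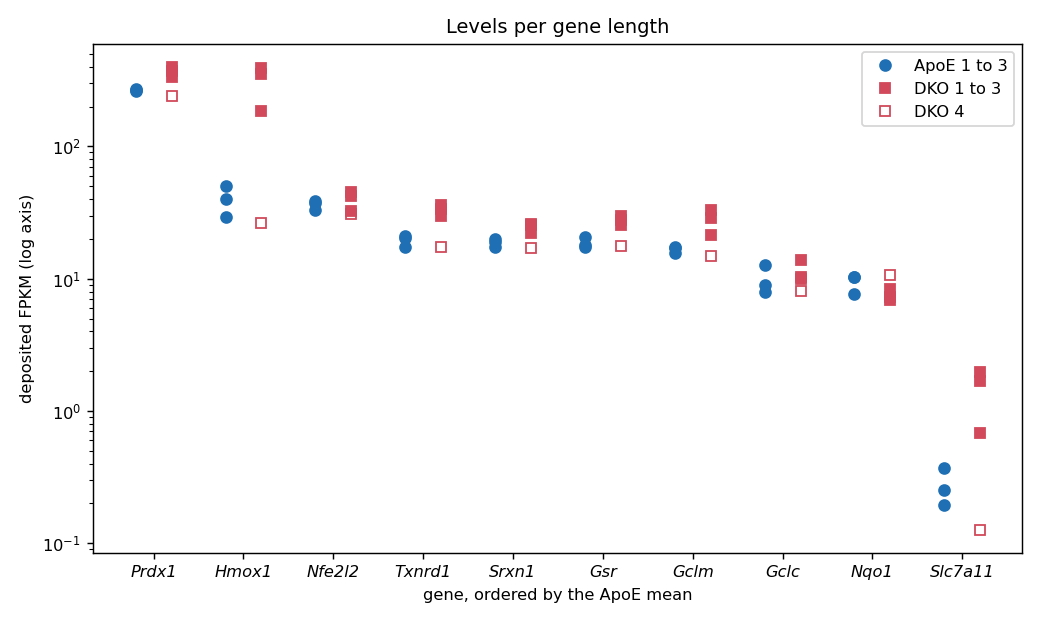
Deposited FPKM of the 10 genes on a log axis, ordered by the ApoE mean; circles are ApoE 1 to 3, filled squares DKO 1 to 3 and open squares DKO 4. Hmox1 in DKO 1 and DKO 2 (395 and 355 FPKM) reaches the level of Prdx1 (398 and 371 FPKM), while Slc7a11 stays below 2 FPKM in every library.

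Most other pathway genes had lower means in the DKO libraries. Of 69 further genes listed for NRF2 regulation, glutathione, thioredoxin, NADPH supply, haem and iron, and detoxification, 65 were tested (Ggt1, Gsta1, Gsta2 and Gstm3 had too few counts). Of these, 0 were called higher and 0 lower, 12 had positive and 53 negative log2 fold changes, where 47.4% of all genes were positive, and the median was -0.23 against -0.02 over all genes. At an unadjusted p under 0.05, 25 were lower and 0 higher, where 11.8% of all genes were lower and 8% higher. The order of the 7 genes was seen in 5 of the 65, against 2.59% of all genes. The groups did not overlap in 15, all lower in DKO, where 9.24% of all genes were lower without overlap. With DESeq2 8 of these genes were called lower, where 4.96% of all genes were, and with limma voom 19, where 10% were. White adipocyte markers were lower beside them: their summed level was 4894 to 7733 CPM in the ApoE and 2353 to 3588 CPM in the DKO libraries, with 6 of 6 negative. Its part in these values was not tested. In tissue as a whole, fewer cells of a type and less RNA per cell cannot be told apart.

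Among the regulators, 3 of 12 were positive and 9 negative. Keap1, the sensor that restrains NRF2, had a mean ± SD of 84.9 ± 5.12 CPM in the 3 ApoE libraries and 73.4 ± 6.30 CPM in the 4 DKO libraries, which did not overlap; its log2 fold change was -0.21 (SE 0.09, adjusted p = 0.270). Maff, a small MAF partner, was at 41.4 against 31.2 CPM (log2 fold change -0.41, adjusted p = 0.237), and the ligase component Rbx1 at 69.4 against 61.2 CPM. Bach1, the repressor that haem displaces, was read at 44.2, 50.7 and 38.9 CPM in ApoE 1 to 3 and at 79.5, 60.0, 64.2 and 37.5 CPM in DKO 1 to 4 (log2 fold change 0.43, adjusted p = 0.350). Bach1 thus had the order of the 7 target genes, as did Cul3 (85.5 to 94.5 CPM against 104, 94.9, 95.1 and 79.0 CPM). Bach1 and Cul3, and the 3 genes with this order given next, were singled out after their values were seen.

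Iron genes with this order were found among haem and iron handling, where 3 of 12 were positive and 9 negative. Slc40a1, ferroportin, which exports iron from cells, was read at 45.1, 11.6 and 10.6 CPM in ApoE 1 to 3 and at 78.3, 145, 154 and 9.10 CPM in DKO 1 to 4 (log2 fold change 2.11, SE 0.95, adjusted p = 0.273). Ftl1, the ferritin light chain that stores iron, was read at 2427, 1936 and 1672 CPM and at 3085, 2560.5, 3287 and 1546 CPM (log2 fold change 0.38, adjusted p = 0.470). Both had DKO 3 rather than DKO 1 as the highest library. Genes with the smallest p in this list went the other way: Hp, haptoglobin, which binds free haemoglobin, had a mean ± SD of 2163 ± 315 CPM in the 3 ApoE libraries and 1056 ± 252 CPM in the 4 DKO libraries. Its log2 fold change was -1.03 (SE 0.21, adjusted p = 0.132). Cd163, the receptor for haptoglobin bound to haemoglobin, averaged 57.1 CPM in ApoE and 20.5 CPM in DKO (adjusted p = 0.133), which is -1.48 as a log2 fold change with an SE of 0.31. Fech, which inserts iron into haem, was at 69.3 against 59.2 CPM. All 3 were lower without overlap.

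In the other 4 lists negative values prevailed. Of 14 glutathione genes, 13 were negative, with Mgst1, a membrane-bound glutathione transferase, at a mean ± SD of 315 ± 33.2 CPM in ApoE and 204 ± 19.4 CPM in DKO (log2 fold change -0.63, adjusted p = 0.120), Mgst3 at 39.6 against 24.5 CPM and Gsta3 at 13.7 against 9.38 CPM. Of 9 thioredoxin genes, 8 were negative, with Prdx3, the mitochondrial peroxiredoxin, at 82.1 against 57.9 CPM (log2 fold change -0.50, adjusted p = 0.155), Txn1, thioredoxin, at 192 against 157 CPM and Txnip, its inhibitor, at 628 against 377 CPM. Thioredoxin and its reductase Txnrd1 therefore had log2 fold changes of opposite sign (-0.29 and 0.53). All 6 NADPH genes were negative, with the pentose phosphate enzymes Taldo1 (296 against 195 CPM) and Tkt (620.1 against 327 CPM) and the malic enzyme Me1 (166 against 102 CPM). Each of these was highest in ApoE 3, at 395, 979 and 237 CPM. Taldo1 was lower without overlap, but the groups overlapped in Tkt and Me1. There ApoE 2 (391 and 108 CPM) lay below DKO 4 (405 and 114 CPM). Of 12 detoxification genes, 8 were negative, with the mitochondrial porphyrin transporter Abcb6 at 22.5 against 14.5 CPM (log2 fold change -0.64, adjusted p = 0.146), the epoxide hydrolase Ephx1 at 276 against 174 CPM and the carbonyl reductase Cbr1 at 44.9 against 33.3 CPM. Akr1b8, an aldo-keto reductase, was the detoxification gene with the order of the 7 targets, at 29.2, 27.5 and 28.1 CPM against 43.9, 43.5, 41.6 and 24.0 CPM (log2 fold change 0.44, adjusted p = 0.295).

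**Figure D4:**
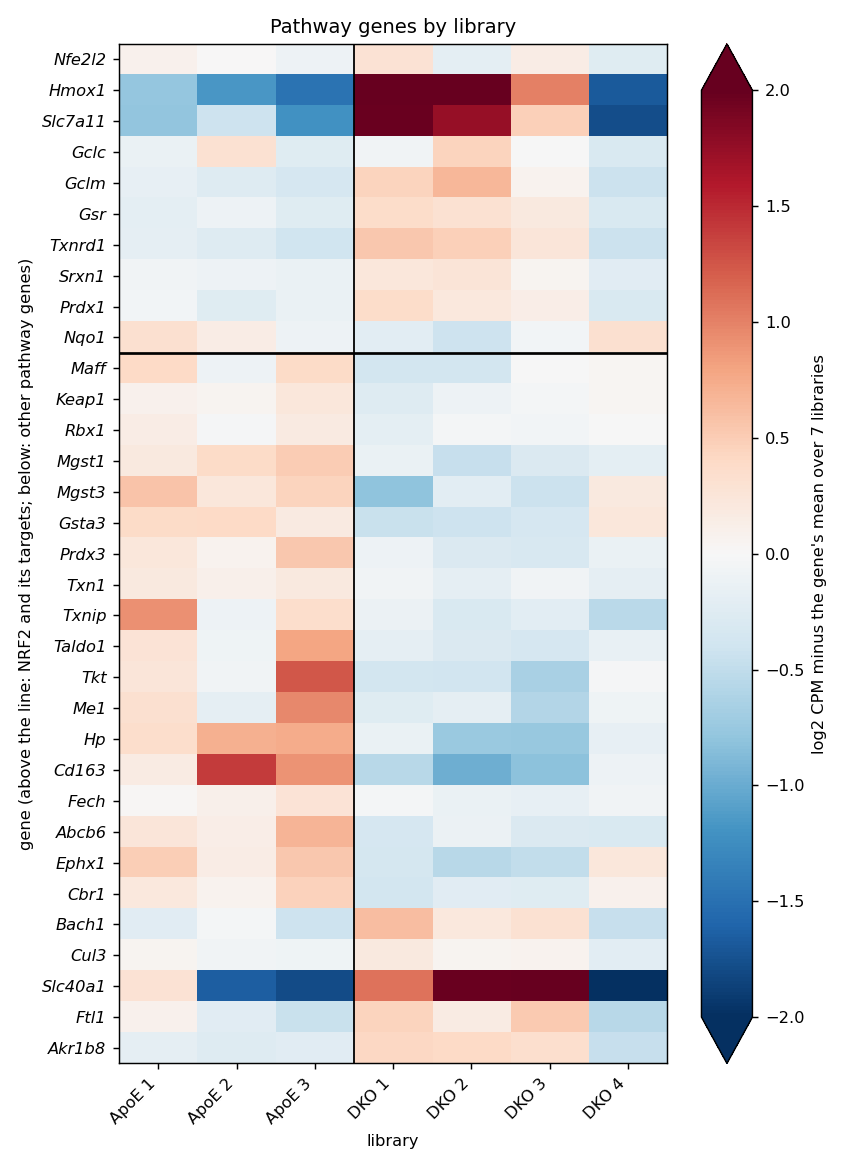
Log2 CPM of each gene minus its mean over the 7 libraries (colour, blue lower and red higher, clipped at 2); above the line the 10 genes, below it the 3 genes with the smallest p of each further list and then the 5 others with the shared order. Values above the mean in DKO 1 to 3 and below it in DKO 4 mark Hmox1, Slc7a11, Gclm, Gsr, Txnrd1, Srxn1 and Prdx1, and again Bach1, Cul3, Slc40a1, Ftl1 and Akr1b8. Some are too close to the mean to show a clear colour, such as Srxn1 (0.05) and Gclm (0.07) in DKO 3 and Cul3 in DKO 2 and DKO 3 (0.06).

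Markers of several cell types differed between the same libraries. Macrophage markers, 7 of 7 with positive and none with called fold changes, summed to 2019 to 3095 CPM in the ApoE and 2247 to 4642 CPM in the DKO libraries. Cd163, also a macrophage marker but not among these 7, went the other way, at 57.1 CPM in ApoE and 20.5 CPM in DKO without overlap. The highest macrophage sums were those of DKO 3 (4642 CPM) and DKO 1 (3946 CPM), followed by ApoE 2 (3095), DKO 2 (2944) and ApoE 1 (2721). The lowest were those of DKO 4 (2247) and ApoE 3 (2019), which also had the lowest Hmox1. These sums were mostly Lyz2 (21448 to 67412 counts per library). In Adgre1, Ptprc, Mrc1 and C1qa, DKO 1 to 3 each lay above every ApoE library. In Lyz2, Cd68 and Csf1r, ApoE 2 lay above DKO 2. Adgre1 had 1303, 1664 and 719 counts in ApoE 1 to 3 and 2203, 2134, 2441 and 1048 in DKO 1 to 4. DKO 4 was not below every ApoE library in any of these markers. Red blood cell genes, 5 of 5 positive and 0 called, summed to 35.5 to 165 CPM in the ApoE and 47.1 to 271 CPM in the DKO libraries. DKO 1 (271 CPM) and DKO 3 (216) were highest, followed by ApoE 3 (165), DKO 2 (143), ApoE 1 (88.6), DKO 4 (47.1) and ApoE 2 (35.5). Smooth muscle markers were lowest in DKO 1 (7722 CPM), DKO 2 (12778) and DKO 3 (13965) and highest in DKO 4 (28095), which is the order of Hmox1 among the DKO libraries turned round. The ApoE libraries lay between, at 14736 to 22909.7 CPM. The part of these cell types in the values of the 10 genes was not tested.

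**Figure D5:**
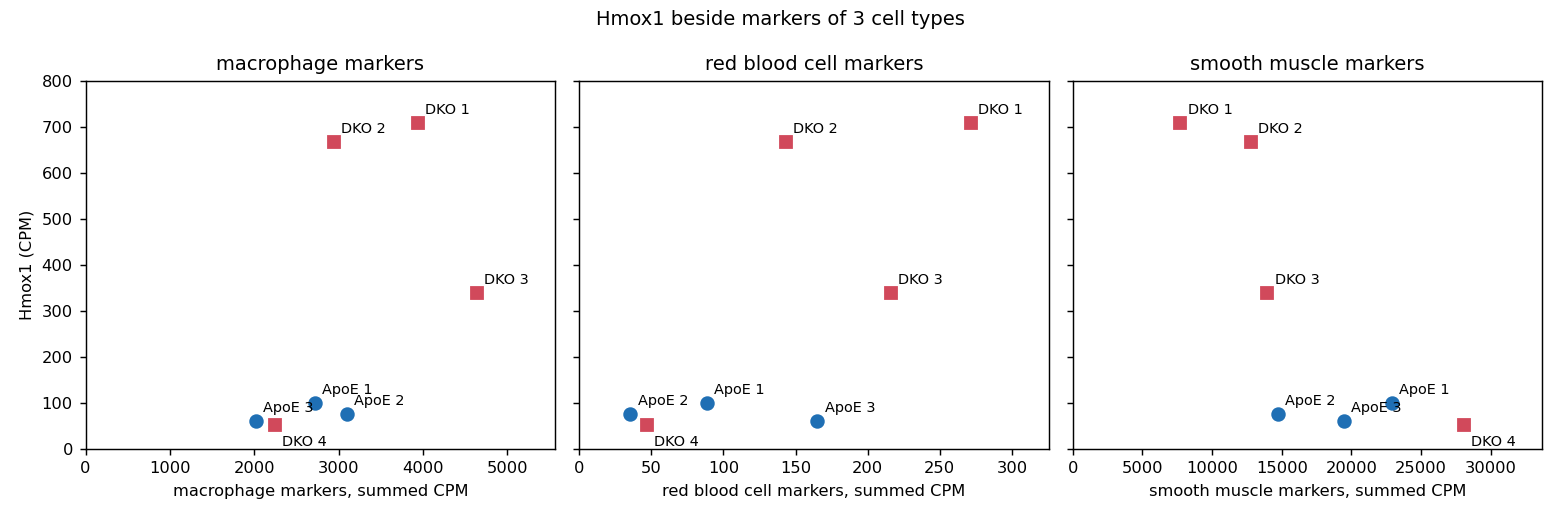
Hmox1 in CPM against the summed CPM of markers of macrophages, red blood cells and smooth muscle, all axes linear from 0; circles are ApoE 1 to 3 and squares DKO 1 to 4. DKO 4 lies with the ApoE libraries in Hmox1 and has the highest smooth muscle sum (28095 CPM), and DKO 1 has the highest Hmox1 and the lowest smooth muscle sum (7722 CPM).

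Markers of other tissues also differed among the libraries. Atrial cardiomyocyte markers summed to 243 CPM in ApoE 2 and 810.2 CPM in ApoE 3, against 18.9 to 44.8 CPM in the other 5 libraries, with Myl7, Nppa and Sln at 0 in at least 1 library. Without ApoE 2 and ApoE 3 together the log2 fold change of Hmox1 was 2.16 (adjusted p = 0.656) and that of Slc7a11 1.99 (adjusted p = 0.685), from 1 ApoE library that was assumed to vary like the DKO libraries. Brown adipocyte markers summed to 635 to 1835 CPM in the ApoE and 246 to 562 CPM in the DKO libraries. The sums of fibroblast markers (8911 to 17929 CPM) and endothelial markers (1112 to 1489.7 CPM) overlapped between groups. Each list had 2 positive, 3 negative and 0 called genes. The fibroblast sum was mostly Col1a1 (128121 to 332194 counts per library), which was among the positive ones. Of the negative ones, Pi16 had 14702 to 23097 counts in the ApoE and 5566 to 8409 in the DKO libraries, and Dpt 12110 to 12850 against 8426 to 10381. Skeletal muscle markers (7.08 to 90.7 CPM) also overlapped, as did chromaffin and sympathetic markers, which were highest in DKO 2 (746 CPM), ApoE 2 (617) and ApoE 1 (288) and at 1.53 to 83.0 CPM in the other 4.

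The genes whose profiles were most like those of Slc7a11, Hmox1 and Gclm, the 3 of the 10 genes with the widest range, were sought among 13016 other genes by the root mean square difference of centred log2 CPM over the 7 libraries. For Slc7a11 they were Sh2d5 (0.26), the heparan sulfate 6-O-sulfotransferase gene Hs6st2 (0.37) and the imprinted gene Mest (0.42). For Hmox1 they were Sh2d5 (0.45), Hs6st2 (0.46) and Clec4n, which encodes the myeloid lectin dectin-2 (0.49). For Gclm they were Cdca8, a component of the chromosomal passenger complex (0.12), the type I collagen chain gene Col1a2 (0.12) and Fam57a (0.12). None of these was called between groups (edgeR adjusted p 0.178 to 0.543). Sh2d5 had a mean of 1.72 CPM in the ApoE libraries and was read at 12.8, 6.52, 4.62 and 0.82 CPM in DKO 1 to 4, which is the order of Hmox1 among the DKO libraries.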

How the data were processed

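The assay was sequencing of polyadenylated RNA from abdominal aorta in 7 libraries, made with a strand-marking TruSeq kit, per the labels' protocols. The submitters' processing notes name Trimmomatic, HISAT2, HTSeq, Cufflinks and DESeq with GRCm38.p6, without versions or roles. Counts of overlapping genes are uncertain, since the strand setting is not given in the sources used here. The deposited counts are whole numbers with no scaling, and the deposited FPKM values were scaled by the authors for gene length and depth. Each column was assigned by its genotype tag and number. Gene identifiers gave back 27 symbols that had become dates. Any 2 libraries differed by more than sampling noise (chi-square per gene at least 35.2).

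For the comparison of 4 DKO with 3 ApoE libraries, counts were filtered by filterByExpr (minimum count 10, leaving 14609 genes), scaled by TMM and fitted over all genes in edgeR. P-values of the quasi-likelihood test were adjusted by Benjamini and Hochberg's method and called under 0.05. An SE is the size of the log2 fold change divided by the root of F; 95% intervals are unadjusted. The fit was first tested on simulated data. FPKM ratios were compared by an exact permutation test, and profiles used log2 CPM with a prior count of 2. Versions: R was 4.3.3, DESeq2 was 1.42.0, edgeR was 4.0.16 and limma was 3.58.1.

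The 10 genes, the further lists, the markers and the naming rule were chosen with earlier results of these data known. The rule names all 10 genes, up to 3 genes of each further list (adjusted p under 0.05, or else the smallest p) and the 3 profiles most alike for each of 3 genes. Alternatives were other scaling (RLE), other tools (DESeq2, and limma voom with quality weights), other filters (none, or a minimum count of 50), a block for the replicate number, the removal of each library, and limma fits of log2 FPKM with pseudocounts of 1 or 0.1 and a minimum mean of 1 or none. The removal of ApoE 2 together with ApoE 3 was chosen after seeing the data.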

Additional observations from a re-analysis of the deposited data

Results flagged for a closer look

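Among the 4 DKO libraries, 41 quantities were searched for a highest or lowest library far from the others relative to their range, and 3 met that criterion, where chance gives about 1 in 20. DKO 4 was apart in Gsta3, a glutathione transferase, at 12.8 CPM against 7.95, 8.16 and 8.61 CPM. DKO 2 was apart in Abcb6, at 16.0 CPM against 13.8, 14.1 and 14.2 CPM. DKO 2 was also apart in the chromaffin and sympathetic markers, which summed to 746 CPM against 12.8, 81.4 and 83.0 CPM. None of the 10 genes met the criterion, Hmox1 and Slc7a11 included, since their DKO 3 values lay between those of DKO 4 and the other 2.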

How the results depend on the processing

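Over 17 alternatives (15 for Slc7a11, which misses a minimum mean FPKM of 1), Hmox1, Slc7a11, Gclm, Txnrd1, Gsr, Srxn1 and Prdx1 stayed positive and Nqo1 negative. Slc7a11 was at 0.63 on log2 FPKM with pseudocount 1 and no minimum, a scale that understates low genes, against 1.97 on counts. Over the 17, the median of the 10 genes lay between 0.24 and 0.43, against 0.31 in the main fit. Each move was less than the spread of the mean level of the 10 genes within groups, 0.41. That spread is larger than the median itself, so the comparison with it cannot show that the median is stable. DESeq2 called 1 of the 10 higher (Hmox1, 2.54), 8 further pathway genes lower, and 461 genes higher and 681 lower over all genes. Limma voom called 2 of the 10 higher (Hmox1, 2.12, and Gsr, 0.40), 19 pathway genes lower, and 902 genes higher and 1467 lower. Limma on log2 FPKM with a minimum mean of 1 called 1 gene higher at either pseudocount, and with no minimum it called 0 lower. The median of the further pathway genes was -0.13 at either pseudocount and -0.11 with no minimum. Leaving out 1 library gave 0 to 4 genes higher and 0 to 2 lower over all genes, Nfe2l2 from -0.061 to 0.11, Gclc from -0.10 to 0.23, and the pathway median from -0.26 to -0.16. Without ApoE 2 and ApoE 3 together Nfe2l2 was at -0.070 and 0 genes were lower. With the replicate number as a block, in which DKO 4 has no partner, 0 genes were lower and Hmox1 was at 2.83 (adjusted p = 0.0775). Pairing by number was not shown: same-numbered deviations correlated at -0.39, 0.70 and 0.0036, and not every library correlated best with its own number. Deviations from the means of groups this small depend on each other, so the correlations cannot exclude pairing. The causes of these changes were not tested. Depth limits Slc7a11, with 24 counts in DKO 4, and Sh2d5, at 0.82 CPM there.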
